A study of Rattus norvegicus with 46 samples.

Results

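Kidneys of 4 male Wister rats that had received dexamethasone (Dex, a synthetic glucocorticoid) at 3 mg/kg before renal ischemia and were studied at 3 h of reperfusion were compared with kidneys of 5 naïve rats, which make up 9 of the 46 arrays of the series. Both groups were chosen by their sample titles. Total RNA was hybridised to Affymetrix arrays (Rat Gene 1.1 ST), which carry several short probes along each transcript, with 1 array per animal. Dex animals (Dex 3 h) were anesthetized with isoflurane, ketamine and xylazine, injected intraperitoneally 30 min before surgery, subjected to 45 min of clamping of the left renal artery, had the right kidney removed at reperfusion, and stayed under anesthesia until sacrifice. Naïve animals were uninjured and untreated, and their kidneys were taken directly after general anesthesia and sacrifice. Of the other groups, 5 injured rats given saline in place of Dex (Vehicle 3 h) and 5 rats given Dex and studied at 24 h (Dex 24 h), which had woken up and had received buprenorphine, were used for comparison. All animals weighed 200 to 300 g. No sham-operated kidneys and no uninjured Dex kidneys were analysed here, so ischemia, nephrectomy, the anesthetics used and the time under them, and Dex cannot be told apart in the comparison with naïve kidneys. Between Dex 3 h and Vehicle 3 h kidneys, the injected agent was the stated difference.

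Renal ischemia starves the tubules of oxygen, and the proximal tubule, which depends on oxidative metabolism, is the segment known to be hurt most. In the first hours of reperfusion, cells are known to switch on immediate-early transcription factors, chaperones that refold damaged proteins, and the integrated stress response, which slows translation and induces the factors ATF4 and CHOP. Dexamethasone binds the glucocorticoid receptor, which then enters the nucleus, induces genes such as Fkbp5, Tsc22d3 and Per1 and restrains NF-kB and AP-1, the factors that drive many cytokine genes.

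Array medians of signal, the linear value that the authors computed per probe set, ran from 69.8 to 72.4 in Dex 3 h kidneys and from 65.0 to 73.5 in naïve kidneys. Kidney identity was borne out by the marker lists: no proximal tubule marker of 19 was below a signal of 16 in all arrays of either group, and their summed signal was 44971 to 50827 in Dex 3 h kidneys and 47915 to 56424 in naïve kidneys. Among naïve arrays, replicates 1 and 2 stood apart for glucocorticoid-responsive genes, and results that rest on them are given with and without both. Among Vehicle 3 h arrays, replicate 1 stood apart, with an array median of 87.5 against 64.7 to 70.6 in the other 4. Its mean log2 level of tubular injury markers was 0.38 above the naïve mean, against 1.16 to 1.34 in the other 4, and its summed signals of red blood cell and adrenal genes were 17465 and 1015, against 4967 to 10260 and 334 to 447. These values lie outside the range of the other 4, and whether its label is right was not tested, so the counts against Vehicle 3 h kidneys are given with and without it. Differences are given as log2 fold changes on the scale of log2(signal + 16), which damps the change of genes with low signals. Calls needed an adjusted p under 0.05 and a 2-fold change or more. The adjusted p-values come from limma, with the Benjamini-Hochberg method applied to the 14607 probe sets that varied most over the 46 arrays.

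Of these 14607 probe sets, 648 (4.44%) rose and 96 (0.657%) fell in Dex 3 h kidneys against naïve kidneys, 5.09% in all. The largest rises included stress-responsive transcription factors, chaperones, hormones and growth factors. The largest falls included receptors of the distal nephron, the endothelium and mononuclear cells. Of the 744 called probe sets, 557 carried a single gene symbol. Without both naïve replicates 1 and 2, 642 rose and 161 fell, and 665 of the 744 kept their call. At an adjusted p under 0.05 with no demand on the fold, 1637 (11.2%) rose and 1250 (8.56%) fell. The called shares of 4.44% and 0.657% are the background for the list counts against naïve kidneys below.

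**Figure D1:**
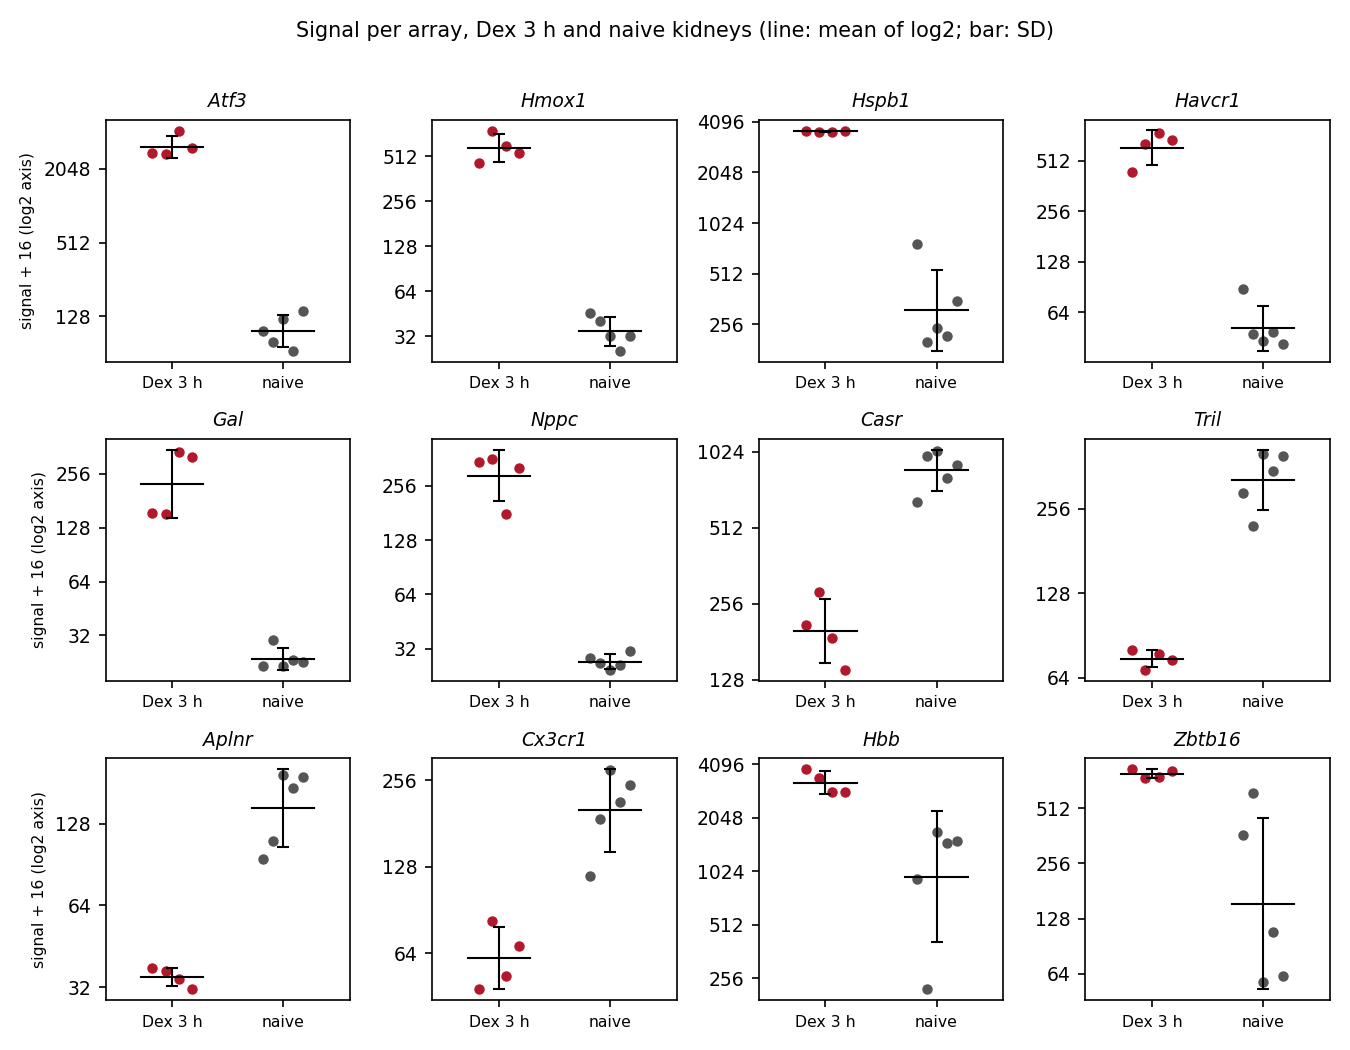
Signal + 16 per array (log2 axis) for 12 genes in Dex 3 h kidneys (n = 4) and naïve kidneys (n = 5), where each point is an animal, the line is the mean of the log2 values and the bar is the SD. Atf3 to Nppc were higher in each Dex 3 h array than in any naïve array, Casr to Cx3cr1 were lower in each, and naïve replicates 1 and 2 set the spread of Zbtb16. Atf3 to Cx3cr1 were taken from the largest changes of these arrays, a choice that favours such separation.

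Atf3, which encodes a leucine zipper factor induced by many kinds of stress, had the largest rise of all called genes. Its signals were 2741, 2687, 4210.5 and 2999.6 in Dex 3 h kidneys, against 80.7, 63.2, 105, 51.1 and 126 in naïve kidneys. The groups lay far apart, with a log2 fold change of 5.00 (SE 0.66, adjusted p = 4.6e-07). Of the list of 28 immediate-early factors that were measured, of which 26 were tested, 22 rose and none fell, with a median log2 fold change of 1.84. Among all 17245 genes measured, of which only 8924 were tested and could be called, 462 rose and 82 fell, and the median was -0.025.

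AP-1 is a dimer of FOS and JUN proteins, and members of both families rose. Fosl1 signals were 309, 317, 498 and 505 in Dex 3 h kidneys, against 8.21, 4.55, 9.26, 8.95 and 13.9 in naïve kidneys (log2 difference 4.06, SE 0.70, adjusted p = 3.7e-05). Fosb had 286, 341, 765 and 354 in Dex 3 h kidneys, against 34.8, 19.8, 50.5, 9.29 and 19.6 in naïve kidneys (log2 difference 3.37, SE 0.57, adjusted p = 2.9e-05). Replicate 3 was the highest Dex 3 h array for Fosb, and it was also the highest for Atf3 and Fos. Fos reached 886, 793, 1482 and 844 in Dex 3 h kidneys, against 159.8, 83.6, 185, 63.5 and 139 in naïve kidneys (log2 difference 2.88, SE 0.53, adjusted p = 1.0e-04). Jun, its partner, was at 3579, 3434, 2982 and 3040.1 in Dex 3 h kidneys, against 392, 404, 441, 407 and 556 in naïve kidneys (log2 difference 2.85, SE 0.40, adjusted p = 1.2e-06). Junb rose by 1.85 on the log2 scale (adjusted p = 1.3e-04).

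Egr1, a zinc finger factor that serum and growth factors induce, stood at 2953, 3098, 3974 and 2617 in Dex 3 h kidneys and 653, 549, 775, 403 and 1077 in naïve kidneys (log2 difference 2.22, SE 0.51, adjusted p = 0.0012). Its groups did not overlap. Myc, a factor that drives growth and ribosome production, was at 729, 681, 939 and 779 in Dex 3 h kidneys, against 80.9, 79.2, 65.7, 63.3 and 57.5 in naïve kidneys (log2 difference 3.22, SE 0.46, adjusted p = 1.6e-06). The Kruppel-like factor Klf6 was at 2375 to 2865 in Dex 3 h kidneys, against a narrow range of 232 to 268 in naïve kidneys (log2 difference 3.25, SE 0.42, adjusted p = 3.2e-07). Its relative Klf4 was at 333 to 406 in Dex 3 h kidneys and 69.3 to 83.4 in naïve kidneys (log2 difference 2.05, SE 0.36, adjusted p = 4.6e-05). Maff, a small MAF protein, rose by 2.76 and Zfp36, which destabilizes cytokine mRNAs, by 1.82 on the log2 scale (adjusted p = 2.7e-07 and 1.5e-04). Egr3, Egr4 and Srf, at log2 fold changes of 0.22, 0.23 and 0.40, were among the 6 members that were not called.

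The promoter of Egr1 is shown because serum response elements, also called CArG boxes, are the known route by which growth signals reach this gene. The 250 bases before its start in RefSeq (build GRCr8, chr18:26736828-26737077, plus strand) hold 2 CArG boxes, in capitals, whose first bases lie 105 and 83 bases before the start.
Egr1: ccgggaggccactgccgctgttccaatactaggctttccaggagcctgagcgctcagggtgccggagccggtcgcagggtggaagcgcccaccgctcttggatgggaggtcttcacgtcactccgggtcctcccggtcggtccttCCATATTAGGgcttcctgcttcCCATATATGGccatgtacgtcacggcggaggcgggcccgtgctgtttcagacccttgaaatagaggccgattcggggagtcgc
Of the 22 called immediate-early genes, 14 had a promoter in the table, and 4 of them (Egr1, Egr2, Klf6 and Zfp36) held a CArG box, searched by that name on both strands in the 250 bases before the start. The same element was in 1.5% of all 33469 promoters of that length. The match is a description of the letters and was not tested as a site of binding.

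Genes that brake MAP kinase and growth factor signaling rose alongside. Of 24 such genes measured (22 tested), 17 rose and none fell, with a median of 1.38. Dusp8, a phosphatase of the stress kinases, was at 431, 521, 606 and 436 in Dex 3 h kidneys, against 41.8, 58.6, 63.6, 33.5 and 42.9 in naïve kidneys (log2 difference 3.01, SE 0.30, adjusted p = 2.9e-09). Dusp1, a phosphatase known as a target of both stress kinases and the glucocorticoid receptor, had 3056, 2802, 3246 and 2667 in Dex 3 h kidneys and 1318, 878, 842, 657 and 1481 in naïve kidneys (log2 difference 1.55, SE 0.31, adjusted p = 2.1e-04). Its naïve range was wide, and the highest naïve array stayed below the lowest Dex 3 h array. Dusp5 and Dusp10 rose by 2.06 and 2.08 on the log2 scale (adjusted p = 5.3e-04 and 2e-05). Sprouty proteins block receptor tyrosine kinase signals, and Spry4 rose by 1.73 and Spry2 by 1.38 (adjusted p = 3.4e-07 and 0.0012). Rgs16, which shortens G protein signals, rose by 2.43 (adjusted p = 4.7e-07).

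Of 12 EGF family ligands and receptors, all tested, 1 rose and none fell (median 0.26). Among all tested probe sets, 4.44% rose and 0.657% fell, so 1 call in a list of this size is not far from that share. The risen gene, Hbegf, for the heparin-binding ligand, was at 538, 555, 788 and 612 in Dex 3 h kidneys, against 40.9, 14.9, 31.9, 34.9 and 41.9 in naïve kidneys (log2 difference 3.73, SE 0.56, adjusted p = 3.9e-06). The other 11 measured ligands and receptors were not called. Tgfa was at 137, 78.1, 158 and 125 in Dex 3 h kidneys and 73, 43.2, 80.2, 40.7 and 63.4 in naïve kidneys (log2 difference 0.88, SE 0.33, adjusted p = 0.051), and the groups overlapped. Areg differed by 0.70 (SE 0.19, adjusted p = 0.0079) and the receptor gene Egfr by 0.81 (SE 0.27, adjusted p = 0.029), below the 2-fold threshold. Egf, which the distal convoluted tubule makes in quantity, was at 2566 to 2859.8 in Dex 3 h kidneys and 2297 to 3529 in naïve kidneys (log2 difference -0.19, SE 0.79, adjusted p = 0.92).

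Heat shock proteins are chaperones that hold and refold unfolded proteins, and 12 of 26 measured genes of that list (21 tested) rose, with a median of 0.92 and no falls. Hspb1, a small heat shock protein that stabilizes actin, was at 3599, 3526, 3545 and 3611 in Dex 3 h kidneys, against 752, 185, 228, 201 and 339 in naïve kidneys (log2 difference 3.53, SE 0.41, adjusted p = 3.6e-08). The 4 Dex 3 h arrays were nearly equal, and naïve replicate 1 was the highest naïve array. Zfand2a, a zinc finger protein that works with the proteasome, was at 2165, 2504, 3212 and 2739 in Dex 3 h kidneys and 179, 193, 135, 132 and 161 in naïve kidneys (log2 difference 3.92, SE 0.48, adjusted p = 1e-07). Dnajb1, a co-chaperone of HSP70, stood at 2721, 2553, 3015 and 2949.6 in Dex 3 h kidneys and 296, 317, 308, 281 and 329.9 in naïve kidneys (log2 difference 3.13, SE 0.35, adjusted p = 2e-08). Bag3, a co-chaperone that steers proteins to autophagy, was at 1339.5 to 2128 in Dex 3 h kidneys and 192 to 231 in naïve kidneys (log2 difference 2.85, SE 0.33, adjusted p = 3.3e-08). Hsph1, an exchange factor for HSP70, had 3186 to 3489 in Dex 3 h kidneys and 353 to 647 in naïve kidneys (log2 difference 2.82, SE 0.35, adjusted p = 1.5e-07). The inducible Hsp90aa1 rose by 2.11 and Dnaja1 by 1.77 (adjusted p = 3.2e-10 and 1.2e-07). The mitochondrial chaperonin Hspd1 differed by 0.88 (SE 0.13, adjusted p = 5e-06), under the 2-fold threshold. The constitutive Hspa8, with a log2 fold change of 0.50, was outside the probe sets tested, and its 8 further probe sets gave 0.49 to 0.81. The probe sets of the inducible HSP70 genes carry several gene symbols and are not reported here.

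Heat shock factor binds inverted repeats of GAA, and the promoters of 3 strongly raised chaperone genes are shown to print these repeats. The capitals mark the core GAANNTTC, searched on both strands of the 250 bases before the start (RefSeq, build GRCr8, Hspb1 on the minus strand at chr12:26432302-26432551, Dnajb1 on the minus strand at chr19:41431142-41431391, Hsph1 on the plus strand at chr12:10427118-10427367).
Hspb1: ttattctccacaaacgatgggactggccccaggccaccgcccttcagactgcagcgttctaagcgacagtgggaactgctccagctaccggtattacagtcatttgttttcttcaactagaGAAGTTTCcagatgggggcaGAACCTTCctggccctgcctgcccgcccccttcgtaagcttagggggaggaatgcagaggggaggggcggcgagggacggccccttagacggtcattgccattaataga
Dnajb1: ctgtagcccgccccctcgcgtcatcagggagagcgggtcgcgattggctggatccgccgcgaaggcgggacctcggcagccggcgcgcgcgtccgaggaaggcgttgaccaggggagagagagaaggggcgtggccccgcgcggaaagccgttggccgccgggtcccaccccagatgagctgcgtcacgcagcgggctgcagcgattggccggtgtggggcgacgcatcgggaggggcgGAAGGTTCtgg
Hsph1: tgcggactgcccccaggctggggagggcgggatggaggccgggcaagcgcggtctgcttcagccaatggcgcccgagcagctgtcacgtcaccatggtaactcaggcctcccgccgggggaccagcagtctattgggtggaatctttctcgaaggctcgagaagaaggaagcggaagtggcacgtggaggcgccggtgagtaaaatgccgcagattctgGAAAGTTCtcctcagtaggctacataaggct
Hspb1 held 2 such cores, with first bases 129 and 109 bases before the start. Dnajb1 held 1, 11 bases before the start, and Hsph1 held 1, 31 bases before it. Of the 12 called chaperone genes, 10 had a promoter in the table and 6 held the core (Bag3, Dnaja1, Dnajb1, Hspb1, Hspb8 and Hsph1), against 7.23% of all promoters of this length. Among all promoters of genes that rose, the share was 5.76%.

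The integrated stress response and the unfolded protein response of the endoplasmic reticulum showed 17 rises and no fall among 31 genes (23 tested), with a median of 1.05. Chac1, an enzyme that breaks down glutathione, was at 467, 412, 635 and 256 in Dex 3 h kidneys, against 62.5, 21.7, 30.9, 16.2 and 25.8 in naïve kidneys (log2 difference 3.28, SE 0.44, adjusted p = 5.6e-07). Its other probe set gave 0.095 (adjusted p = 0.81). Ddit3, which encodes CHOP, was at 1240.2, 768, 1266 and 1076 in Dex 3 h kidneys and 211, 201, 160.5, 157 and 169.8 in naïve kidneys (log2 difference 2.48, SE 0.26, adjusted p = 8.6e-09). Ppp1r15a (GADD34), which restarts translation, was at 1430.2 to 1966 in Dex 3 h kidneys and 179 to 227 in naïve kidneys (log2 difference 2.92, SE 0.45, adjusted p = 6.4e-06). The pseudokinase gene Trib3 and the amino acid transporter genes Slc7a11 and Slc7a5 rose by 2.47, 2.80 and 2.46 (adjusted p = 2.2e-06, 3.2e-05 and 3.6e-05). Atf4 itself rose by 1.45, the luminal chaperone gene Hspa5 by 1.20 and Asns, for asparagine synthesis, by 1.12 (adjusted p = 7.3e-07, 1.3e-06 and 2.5e-04). Naïve replicate 1 was the highest naïve array for Atf4, Asns, Chac1 and Slc7a11. Gdf15, a stress hormone, was at 1065 to 1276 in Dex 3 h kidneys and 135 to 479.5 in naïve kidneys (log2 difference 2.26, SE 0.43, adjusted p = 1.4e-04).

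NRF2 is the master regulator of genes against oxidative stress. Of 24 NRF2 targets measured (17 tested), 4 rose and none fell, with a median of -0.01, where 4.44% of all tested probe sets rose. Hmox1, which degrades heme, was at 448, 746, 587 and 522 in Dex 3 h kidneys, against 29.9, 24.3, 16.1, 9.66 and 16.1 in naïve kidneys (log2 difference 4.08, SE 0.40, adjusted p = 2.2e-09). Srxn1, which repairs peroxiredoxins, was at 2155, 1497, 2301 and 2325 in Dex 3 h kidneys and 261, 206, 215, 209 and 183 in naïve kidneys (log2 difference 3.16, SE 0.38, adjusted p = 1.1e-07). The cystine carrier gene Slc7a11 is on this list too, and Txnrd1, for thioredoxin reductase, rose by 1.00 (SE 0.25, adjusted p = 0.003), a call that was lost without naïve replicate 1 or 5 or Dex 3 h replicate 3 or 4, at log2 fold changes of 0.94 to 0.99. Nqo1, a standard NRF2 target, was at 96.2 to 133 in Dex 3 h kidneys and 86.4 to 185 in naïve kidneys (log2 difference -0.001, SE 0.43, adjusted p = 1). The glutathione synthesis genes Gclc and Gclm had lower values, at -0.39 and -0.51, and neither was called (adjusted p = 0.49 and 0.079).

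Of 27 genes of hypoxia and glycolysis, 16 were tested and the other 11 could not be called. Among the 16, 4 rose and none fell, against rises of 4.44% of all tested probe sets, and the median over the 27 was 0.15. Hk2, which traps glucose in the cell, was at 444, 382, 364 and 390.4 in Dex 3 h kidneys, against 86.2, 78.2, 68.8, 55.7 and 96.1 in naïve kidneys (log2 difference 2.16, SE 0.37, adjusted p = 3.5e-05). Adm, for the vasodilator adrenomedullin, rose by 1.94 and Pfkfb3, a switch of glycolysis, by 1.50 (adjusted p = 3.3e-05 and 0.0062). Vegfa was at 1430.4 to 1716 in Dex 3 h kidneys and 1091 to 1248 in naïve kidneys, and the difference of 0.45 (SE 0.19, adjusted p = 0.1) was not called.

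Cells with damaged DNA or protein stop dividing, and arrest genes were among the rises. Cdkn1a, which encodes the cell cycle inhibitor p21, was at 926, 948, 1005 and 1142 in Dex 3 h kidneys, against 239, 156, 48.7, 91.6 and 46.5 in naïve kidneys (log2 difference 3.16, SE 0.39, adjusted p = 1.2e-07). Naïve replicates 1 and 2 were the 2 highest naïve arrays. Gadd45b, of a family induced by DNA damage and other stress, was at 1799.5, 1678, 2092 and 1874 in Dex 3 h kidneys and 213, 146, 120.1, 118 and 138 in naïve kidneys (log2 difference 3.55, SE 0.43, adjusted p = 1e-07). Gadd45a rose by 1.54 and the polo-like kinase gene Plk2 by 2.18 (adjusted p = 5.6e-04 and 9.2e-06). In all, 8 of 22 p53 targets and arrest genes (19 tested) rose and none fell (median 0.62). The share that rose among all tested probe sets was 4.44%. Mdm2, the classical p53 target, differed by 0.95 (SE 0.17, adjusted p = 7.9e-05), just under the 2-fold threshold, and was called without naïve replicates 1 and 2 (log2 fold change 1.04, adjusted p = 2.4e-04). Of 26 genes of cell cycle and DNA replication, none was called in either direction, and 21 had values below 0 (median -0.26). Among all 17245 genes, 9151 had values below 0 (median -0.025). Top2a, for example, was at 65.5 to 116 in Dex 3 h kidneys and 71.2 to 222 in naïve kidneys (log2 difference -0.76, SE 0.42, adjusted p = 0.23).

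Of 32 regulators of apoptosis, of which 19 were tested, 3 rose and none fell (median 0.25). Without naïve replicates 1 and 2, 2 of them rose and 1 fell. In the main fit, 4.44% of all tested probe sets rose and 0.657% fell. Tnfrsf12a, the receptor for TWEAK, was at 1113, 1158, 1548 and 1443 in Dex 3 h kidneys, against 176, 126, 146, 192 and 106 in naïve kidneys (log2 difference 3.02, SE 0.42, adjusted p = 1.1e-06). Pmaip1 (NOXA), a death-promoting member of the BCL2 family, rose by 1.32 (SE 0.31, adjusted p = 0.0015). Birc3, an inhibitor of cell death, was the third, at 1.35. The survival gene Bcl2 had lower values in Dex 3 h kidneys, 68 to 102, than in naïve kidneys, 121 to 212, and the difference of -0.86 (SE 0.23, adjusted p = 0.0052) was under 2-fold. Without naïve replicates 1 and 2 Bcl2 was called lower, with a log2 difference of -1.04 (adjusted p = 0.0037).

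**Figure D2:**
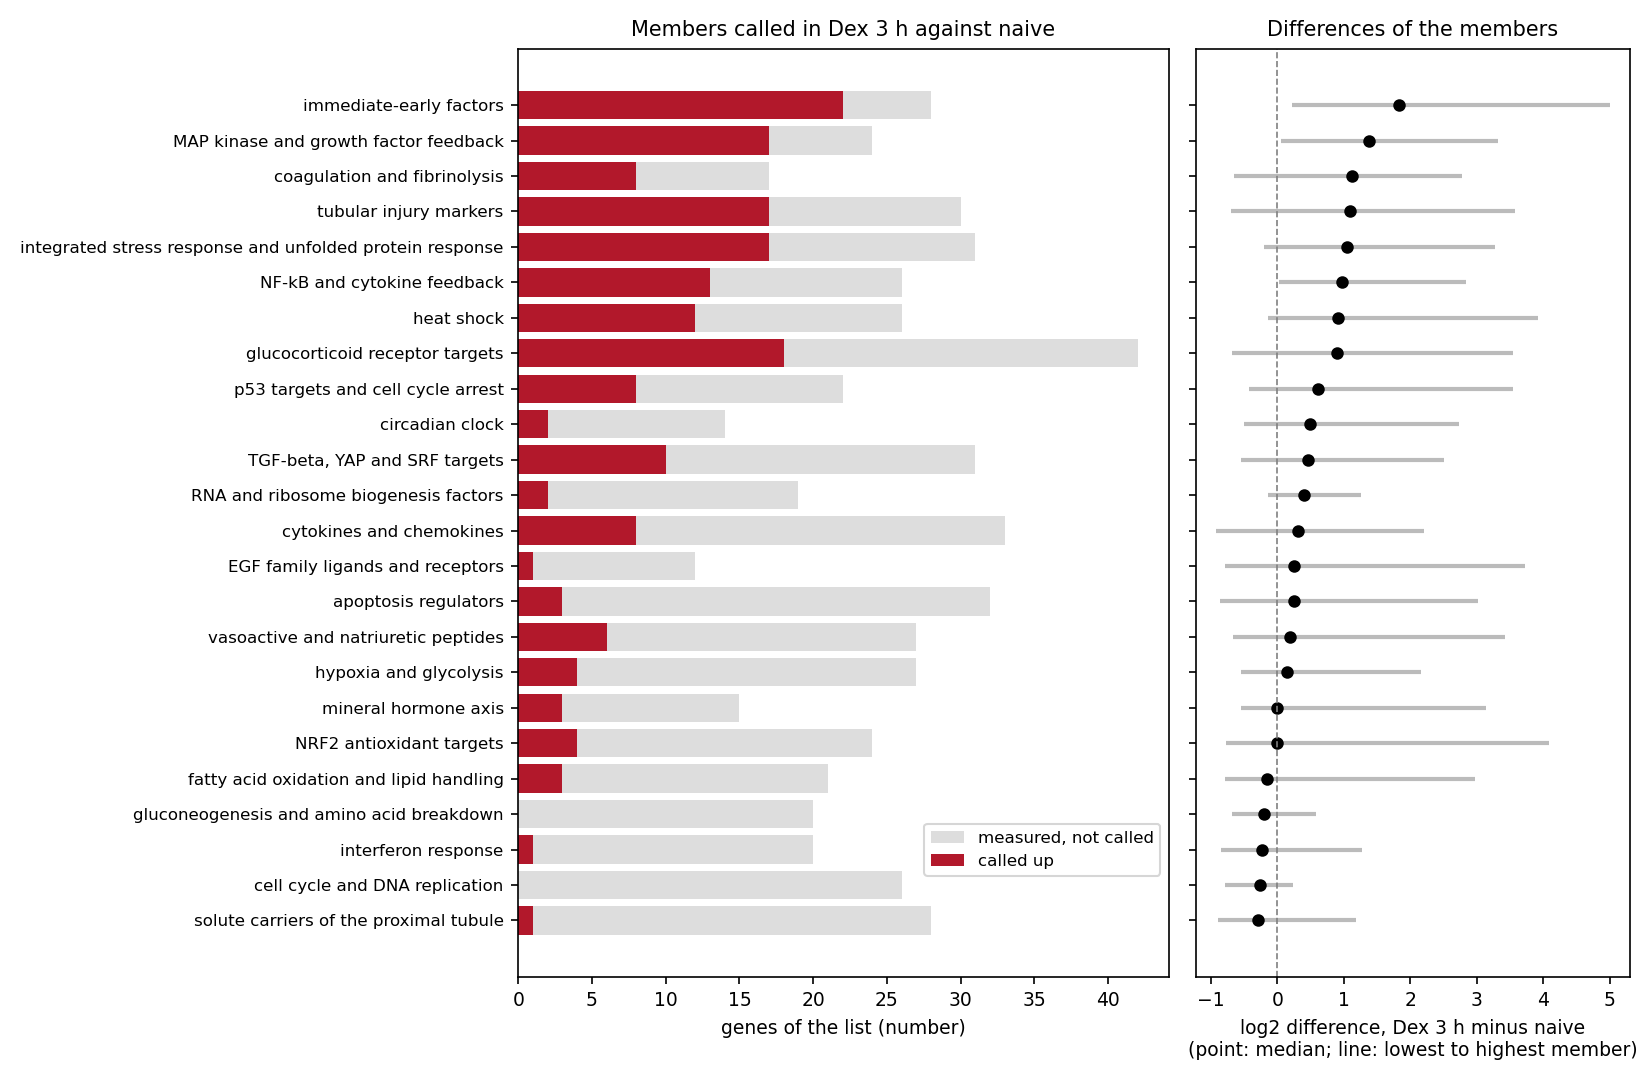
Left, number of genes measured (grey) and called up (red) in each of 24 gene lists for Dex 3 h against naïve kidneys. Right, median (point) and lowest to highest log2 difference (line) of the members, on the log2(signal + 16) scale; 22 of 28 immediate-early factors rose, and none of 26 cell cycle genes did.

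Markers of tubular injury were already raised at 3 h. Havcr1, which encodes KIM-1 and is known to appear on injured proximal tubule cells, was at 422, 626, 728 and 660.2 in Dex 3 h kidneys, against 72, 31.5, 27.1, 33 and 25.5 in naïve kidneys (log2 difference 3.57, SE 1.02, adjusted p = 0.0097). The SE, which pools the spread within all 10 groups, was the largest of the genes named here. Naïve replicate 1 was the highest naïve array, and without naïve replicates 1 and 2 the SE was 1.19. Lcn2, for lipocalin-2, was at 789, 549, 1211 and 938 in Dex 3 h kidneys and 161, 44.8, 145, 170.4 and 163 in naïve kidneys (log2 difference 2.59, SE 0.73, adjusted p = 0.009). Without naïve replicates 1 and 2 it lost its call (log2 fold change 2.29, adjusted p = 0.055). Clu, an extracellular chaperone, was at 1754 to 2088 in Dex 3 h kidneys and 408 to 836 in naïve kidneys (log2 difference 1.81, SE 0.49, adjusted p = 0.0065). Timp1, an inhibitor of matrix proteases, rose by 1.75 (SE 0.54, adjusted p = 0.016) and lost its call without naïve replicate 2 (adjusted p = 0.056). Sox9, for a transcription factor of regenerating tubules, rose by 1.20 and the keratin gene Krt8 by 1.34 (adjusted p = 0.005 and 0.0035). Vim, for vimentin, rose by 1.03 (SE 0.34, adjusted p = 0.028), and its call was lost without naïve replicate 2 or Dex 3 h replicate 1, 3 or 4, at adjusted p-values of 0.06 to 0.072. In all, 17 of 30 injury markers rose and none fell, with a median of 1.09. This list shares Myc, Cdkn1a and Tnfrsf12a with the lists above.

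Of 28 solute carriers of the proximal tubule, none fell and 1 rose, a share near the 5.09% called among all tested probe sets. Values below 0 were found for 22 of them, and the median was -0.30, against 9151 of all 17245 genes and a median of -0.025. The risen gene, Slc20a1, encodes a phosphate carrier found in many cell types (log2 difference 1.19, SE 0.23, adjusted p = 1.6e-04). The organic anion carrier gene Slco4c1 was at 243, 252, 287 and 298 in Dex 3 h kidneys and 342, 736, 567, 524 and 469 in naïve kidneys, and it was not called (log2 difference -0.89, SE 0.67, adjusted p = 0.42) although the groups did not overlap. The glucose carrier gene Slc5a1 was likewise lower in each Dex 3 h array and not called (log2 difference -0.74, SE 0.29, adjusted p = 0.072). Lrp2 (megalin), which takes up filtered protein, was at 2153 to 2329.6 in Dex 3 h kidneys and 2574 to 3101 in naïve kidneys (log2 difference -0.30, SE 0.23, adjusted p = 0.43). In bulk tissue, fewer cells of a type and less RNA per cell cannot be told apart.

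The loop of Henle and distal tubule list had a median of -0.55, and 11 of its 13 genes (12 tested) had values below 0, while none was called. Among all 17245 genes, 9151 had values below 0 and the median was -0.025, and 0.657% of all tested probe sets fell. The summed signal of its markers was 18578 to 19323 in Dex 3 h kidneys and 20500 to 28327 in naïve kidneys. Kcnj1 (ROMK), the potassium channel of the thick limb, was at 1212, 1555, 1446 and 1579 in Dex 3 h kidneys, against 1831, 2429.9, 3478, 3432 and 2975 in naïve kidneys (log2 difference -0.93, SE 0.41, adjusted p = 0.11). Slc12a1, the sodium carrier of the same segment, was at 1911 to 2121 in Dex 3 h kidneys and 2420 to 3952 in naïve kidneys (log2 difference -0.62, SE 0.40, adjusted p = 0.32). Umod, its secreted product, overlapped between the groups (log2 difference -0.21, SE 0.43, adjusted p = 0.82). Of 15 collecting duct genes, all tested, 1 rose and none fell, where 4.44% of all tested probe sets rose. Values below 0 were found for 13 of the 15, and the median was -0.29. Of the members not called, Aqp2, the vasopressin-regulated water channel, was at 1114 to 2173 in Dex 3 h kidneys and 1687 to 3428 in naïve kidneys (log2 difference -0.75, SE 0.50, adjusted p = 0.34), and Slc26a4 (pendrin) differed by -0.81 (SE 0.25, adjusted p = 0.016).

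The largest fall of all was of a receptor gene of the thick limb. Casr, the calcium-sensing receptor, was at 195, 268, 172 and 124 in Dex 3 h kidneys, against 632, 967, 1018, 789 and 889 in naïve kidneys (log2 difference -2.12, SE 0.46, adjusted p = 7.5e-04). Gp2, a relative of Umod, fell to 53.3 to 97.3 in Dex 3 h kidneys, against 163 to 309.7 in naïve kidneys (log2 difference -1.43, SE 0.48, adjusted p = 0.028), and this call was lost when naïve replicate 3 or 4 or Dex 3 h replicate 1, 3 or 4 was left out, at adjusted p-values of 0.052 to 0.083. Ugt8, an enzyme of glycolipid synthesis, was at 191, 98.3, 141 and 68 in Dex 3 h kidneys and 674, 257, 471, 455 and 536 in naïve kidneys (log2 difference -1.83, SE 0.46, adjusted p = 0.003). Other genes among the 15 largest falls were the homeobox gene Hmx2, the Wnt inhibitor gene Dkk1, Cmahp and Kank4, with log2 differences of -1.53, -1.36, -1.59 and -1.33. All 4 were lower in each Dex 3 h array than in any naïve array, which their choice as largest falls of the same arrays favours.

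Endothelial and leukocyte genes were also among the largest falls. Aplnr, the apelin receptor of the endothelium, was at 21.5, 20.6, 18.3 and 15.4 in Dex 3 h kidneys, against 78.8, 94, 177, 157 and 174 in naïve kidneys (log2 difference -2.06, SE 0.36, adjusted p = 4.1e-05). Sox18, an endothelial transcription factor, was at 41, 41.8, 26.4 and 53.6 in Dex 3 h kidneys and 85.5, 167, 146, 133 and 149 in naïve kidneys (log2 difference -1.42, SE 0.24, adjusted p = 3.1e-05). Lipg, for endothelial lipase, and Exoc3l2 fell, with log2 differences of -1.33 and -1.38 (adjusted p = 0.0015 and 1.5e-07). The endothelial list as a whole had 1 rise and 1 fall among 17 genes (13 tested, median -0.16). Among all tested probe sets, 4.44% rose and 0.657% fell. The summed signal of the list overlapped, at 7964 to 10109 in Dex 3 h kidneys and 8009.7 to 9222 in naïve kidneys. The risen gene was Apold1, an immediate-early gene of endothelial cells, at 700.3, 843, 905 and 774 in Dex 3 h kidneys and 36, 23.1, 50.9, 55.7 and 78.2 in naïve kidneys (log2 difference 3.72, SE 0.34, adjusted p = 5.2e-10). The junction gene Cdh5, a defining endothelial marker, had signals of 492 to 661 in Dex 3 h kidneys and 365 to 507 in naïve kidneys.

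Tril, a partner of toll-like receptors, was at 64.7, 52.4, 61.7 and 58 in Dex 3 h kidneys, against 276, 205, 386, 333 and 377 in naïve kidneys (log2 difference -2.11, SE 0.26, adjusted p = 1.1e-07). Cx3cr1, the fractalkine receptor of resident mononuclear phagocytes, was at 31.9, 67.1, 37.3 and 51.7 in Dex 3 h kidneys and 103, 172, 263, 199 and 231 in naïve kidneys (log2 difference -1.71, SE 0.39, adjusted p = 0.0012). Cd180, a toll-like receptor homolog of immune cells, fell as well, with a log2 difference of -1.45 (SE 0.34, adjusted p = 0.0017). Klra2, of the Ly49 receptor family, fell with a log2 difference of -1.33 (SE 0.34, adjusted p = 0.004), with the reserve that near-identical family members may share its probes. In the opposite direction, the macrophage genes Mrc1 (CD206) and Cd14 rose by 1.68 and 1.11 (adjusted p = 0.0052 and 0.031). The call of Cd14 was lost without naïve replicate 2, 3 or 4 or Dex 3 h replicate 1, 3 or 4, at adjusted p-values of 0.051 to 0.1. Over the 24 genes of the macrophage and dendritic cell list, 2 rose and 2 fell (median -0.10). Among all tested probe sets, 4.44% rose and 0.657% fell. The summed signal of the list was 5633 to 9686 in Dex 3 h kidneys and 8231 to 10826 in naïve kidneys.

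Of 33 cytokine and chemokine genes (30 tested), 8 rose in Dex 3 h kidneys and none fell (median 0.32). Ccl20, which attracts lymphocytes and dendritic cells, was at 152, 148, 136 and 125 in Dex 3 h kidneys, against 12.8, 33.2, 15.6, 5.99 and 30 in naïve kidneys (log2 difference 2.20, SE 0.46, adjusted p = 4.5e-04). Il6 was at 48.1, 57.5, 67.7 and 39.1 in Dex 3 h kidneys and 7.29, 4.22, 7.49, 6.59 and 3.76 in naïve kidneys (log2 difference 1.65, SE 0.35, adjusted p = 5.0e-04), so that its naïve signals lay under the offset of 16. Cxcl1, a neutrophil attractant, was at 68.3 to 85.2 in Dex 3 h kidneys and 7.9 to 19 in naïve kidneys (log2 difference 1.64, SE 0.44, adjusted p = 0.0056). The macrophage growth factor gene Csf1 rose by 1.76, the IL-6 family gene Lif by 1.64, the pentraxin gene Ptx3 by 2.11 and Cxcl10 by 1.69 (adjusted p = 3.7e-04, 0.0054, 5.5e-04 and 0.011). Ccl2, a monocyte attractant, had a wide spread, 790.4, 333, 935 and 231 in Dex 3 h kidneys and 2875, 181, 1262, 368 and 1969.7 in naïve kidneys, and the groups overlapped (log2 difference -0.81, SE 0.61, adjusted p = 0.42). Il1b and Tnf had low signals in both groups, at 3.89 to 14.2 and 15 to 35.1 in Dex 3 h kidneys, against 5.34 to 47.3 and 11.2 to 18 in naïve kidneys, and neither was called (log2 differences -0.33 and 0.32). Of 20 interferon response genes, 1 rose (Ifit2, at a log2 difference of 1.02), near the share of 4.44% among all tested probe sets, and the median was -0.23. No gene of this list was called without naïve replicate 1, naïve replicate 2 or Dex 3 h replicate 2, nor under median centring.

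NF-kB and cytokines induce their own inhibitors, and of 26 such feedback genes (24 tested) 13 rose and none fell (median 0.98). Socs3, which shuts off IL-6 signaling, was at 425, 381, 512 and 367 in Dex 3 h kidneys, against 39.2, 48.1, 47.9, 40.9 and 47.8 in naïve kidneys (log2 difference 2.84, SE 0.42, adjusted p = 3.5e-06). Nfkbia, the inhibitor of NF-kB and a known glucocorticoid target, was at 1101, 1184, 1109 and 1166 in Dex 3 h kidneys and 575, 360.4, 324, 309.9 and 392 in naïve kidneys (log2 difference 1.54, SE 0.20, adjusted p = 3.3e-07). Nfkbiz, a nuclear relative, was at 447 to 591 in Dex 3 h kidneys and 93.3 to 148 in naïve kidneys (log2 difference 2.01, SE 0.41, adjusted p = 3.1e-04). Of the adhesion genes, Selp (P-selectin) was at 82.2, 73.2, 71.1 and 80.8 in Dex 3 h kidneys, against 4.03, 0.0121, 10.5, 11.9 and 8.72 in naïve kidneys (log2 difference 2.04, SE 0.44, adjusted p = 6.3e-04), and Icam1 rose by 1.48 (adjusted p = 9.0e-04).

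The Il6 promoter is shown because it holds a kappaB site, a sequence to which NF-kB is known to bind. The capitals mark this kappaB site (both strands searched), with its first base 68 bases before the start (RefSeq, build GRCr8, minus strand, chr4:5894576-5894825).
Il6: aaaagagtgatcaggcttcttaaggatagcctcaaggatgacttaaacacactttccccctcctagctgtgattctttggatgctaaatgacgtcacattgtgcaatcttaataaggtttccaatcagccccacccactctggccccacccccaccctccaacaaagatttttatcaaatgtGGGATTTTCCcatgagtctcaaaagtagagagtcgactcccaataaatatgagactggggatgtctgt
Among the 21 called genes of the cytokine and NF-kB lists, 15 had a promoter in the table, and 4 held this site (Cxcl1, Il6, Nfkbia and Nfkbiz), against 0.314% of all promoters of this length. The palindromic element of the glucocorticoid receptor, also searched on both strands, was in 0.373% of all promoters and in 2 of the 399 promoters of risen genes (Map3k6 and Serpina3n).

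Genes of coagulation rose in 8 of 17 cases (14 tested) and fell in none (median 1.12). The share that rose among all tested probe sets was 4.44%. Plaur, the urokinase receptor, was at 624, 565, 944 and 533 in Dex 3 h kidneys, against 122, 72.2, 79.9, 63.9 and 78.2 in naïve kidneys (log2 difference 2.77, SE 0.46, adjusted p = 2.3e-05). F3, tissue factor, which starts clotting, was at 1207 to 1691 in Dex 3 h kidneys and 354 to 599.8 in naïve kidneys (log2 difference 1.48, SE 0.27, adjusted p = 6.6e-05), and Thbd, thrombomodulin, which restrains it, was at 284 to 496 in Dex 3 h kidneys and 85.7 to 140 in naïve kidneys (log2 difference 1.85, SE 0.25, adjusted p = 9.1e-07).

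Of 31 targets of TGF-beta, YAP and SRF (27 tested), 10 rose and none fell (median 0.46). The share that rose among all tested probe sets was 4.44%. Ccn2 (connective tissue growth factor) was at 1766, 1891, 2192 and 2352 in Dex 3 h kidneys, against 555, 454, 228, 317 and 266 in naïve kidneys (log2 difference 2.51, SE 0.33, adjusted p = 3.3e-07). Ccn1 (CYR61) was at 2152 to 2505 in Dex 3 h kidneys and 318 to 846 in naïve kidneys (log2 difference 1.84, SE 0.41, adjusted p = 9.2e-04). Bambi, a decoy receptor for TGF-beta, rose by 1.57, and Csrp3, a muscle LIM protein gene, by 1.78 (adjusted p = 3.9e-04 and 2.1e-07). Tgfb2 rose by 1.17 (SE 0.35, adjusted p = 0.013) and Tubb6, for a tubulin, by 1.65 (SE 0.54, adjusted p = 0.026). Without naïve replicates 1 and 2 both lost their call (adjusted p = 0.093 and 0.06), and Tubb6 also lost it without naïve replicate 2 alone or Dex 3 h replicate 3 or 4 (adjusted p = 0.052 to 0.073).

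Secreted hormones and peptides were among the largest rises. Nppc, for C-type natriuretic peptide, was at 332, 347, 163 and 306 in Dex 3 h kidneys, against 12.4, 10.5, 8.41, 9.82 and 14.9 in naïve kidneys (log2 difference 3.43, SE 0.34, adjusted p = 2e-09). Gal, for the neuropeptide galanin, was at 139, 137, 322 and 304 in Dex 3 h kidneys and 5.53, 14.2, 5.44, 7.35 and 6.67 in naïve kidneys (log2 difference 3.25, SE 0.53, adjusted p = 1.7e-05). The naïve signals of both were at or below the offset of 16, so their folds are damped. Edn1, for the vasoconstrictor endothelin-1, was at 268, 365, 349.7 and 374 in Dex 3 h kidneys and 30.2, 47.9, 33.4, 20.6 and 28.6 in naïve kidneys (log2 difference 2.89, SE 0.27, adjusted p = 5.2e-10). Npy, for neuropeptide Y, rose by 1.88 (SE 0.45, adjusted p = 0.002), with the lowest Dex 3 h array below the highest naïve array. Fgf23, a hormone of bone that lowers phosphate, was at 162, 347, 182 and 141 in Dex 3 h kidneys, against 13.1, 8.88, 13.2, 5.76 and 1.44 in naïve kidneys (log2 difference 3.14, SE 0.50, adjusted p = 9.8e-06). Its coreceptor gene Kl (klotho) and the phosphate carrier gene Slc34a1 were not called, at -0.13 and -0.13. Trpv5, the calcium channel of the distal tubule, rose to 467 to 789.7 in Dex 3 h kidneys, against 143 to 273 in naïve kidneys (log2 difference 1.50, SE 0.39, adjusted p = 0.0041). The serine protease gene Prss22, also among the 20 largest rises, was at 349.9 to 764 in Dex 3 h kidneys and 17.8 to 57.8 in naïve kidneys (log2 difference 3.18, SE 0.57, adjusted p = 6e-05).

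Of 42 known targets of the glucocorticoid receptor (39 tested), 18 rose and none fell, with a median of 0.90. Several of them are also targets of stress kinases or of fasting, and 13 of the 18 stand on other lists too. Pdk4, which holds back glucose oxidation, was at 3245, 2249, 2033 and 2168 in Dex 3 h kidneys, against 598, 174, 238, 270.1 and 297 in naïve kidneys (log2 difference 2.97, SE 0.32, adjusted p = 1.2e-08). Map3k6 was at 219 to 247 in Dex 3 h kidneys and 21.2 to 53.5 in naïve kidneys (log2 difference 2.48, SE 0.34, adjusted p = 9.1e-07), and Angptl4, an inhibitor of lipoprotein lipase, rose by 2.33 (SE 0.49, adjusted p = 4.8e-04). Zbtb16 (PLZF), a transcription factor that glucocorticoids induce in many tissues, was at 820, 730, 744 and 800 in Dex 3 h kidneys, against 349, 602, 41.6, 91.8 and 46.3 in naïve kidneys (log2 difference 2.35, SE 0.56, adjusted p = 0.0017). Naïve replicates 1 and 2 were several times above the other 3. Without both, the log2 fold change of Zbtb16 was 3.44 (adjusted p = 1.7e-05). Both arrays were singled out for high values of such genes, so a larger difference without them follows from that choice.

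Fkbp5, a co-chaperone of the receptor, was at 1212, 1133, 1413 and 1311 in Dex 3 h kidneys, against 559.9, 661, 224, 409.5 and 243 in naïve kidneys (log2 difference 1.67, SE 0.35, adjusted p = 4.5e-04). Tsc22d3 (GILZ), an anti-inflammatory target, was at 1043, 1239, 1075 and 1294 in Dex 3 h kidneys and 682, 722, 260.2, 346 and 289.8 in naïve kidneys (log2 difference 1.43, SE 0.28, adjusted p = 2.1e-04). Per1, a clock gene, was at 1465, 1392, 1709 and 1368 in Dex 3 h kidneys and 947, 884, 314, 549 and 413 in naïve kidneys (log2 difference 1.35, SE 0.29, adjusted p = 5.4e-04). For all 3 genes, naïve replicates 1 and 2 were the 2 highest naïve arrays and no naïve array reached a Dex 3 h array. Without both, the log2 fold changes were 2.10 for Fkbp5, 1.91 for Tsc22d3 and 1.79 for Per1 (adjusted p = 1.4e-04, 9.2e-06 and 4.6e-05). These larger values again follow from how the 2 arrays were chosen. Sgk1, a kinase of sodium transport, was at 3536, 3464, 4171 and 3817 in Dex 3 h kidneys and 3489.7, 2249.8, 1301, 1907 and 1664 in naïve kidneys, where replicate 1 overlapped with the Dex range. It was not called (log2 difference 0.89, SE 0.20, adjusted p = 8.7e-04), but was called without naïve replicate 1 (log2 fold change 1.09, adjusted p = 4.0e-05). Klf9 differed by 0.71 (SE 0.18, adjusted p = 0.0042), while the gluconeogenic gene Pck1 did not pass the test (log2 difference 0.15, SE 0.46, adjusted p = 0.89) and Tat, a target best known in the liver, had signals of 17.7 to 23.9 in Dex 3 h kidneys and 14.9 to 23.4 in naïve kidneys.

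**Figure D3:**
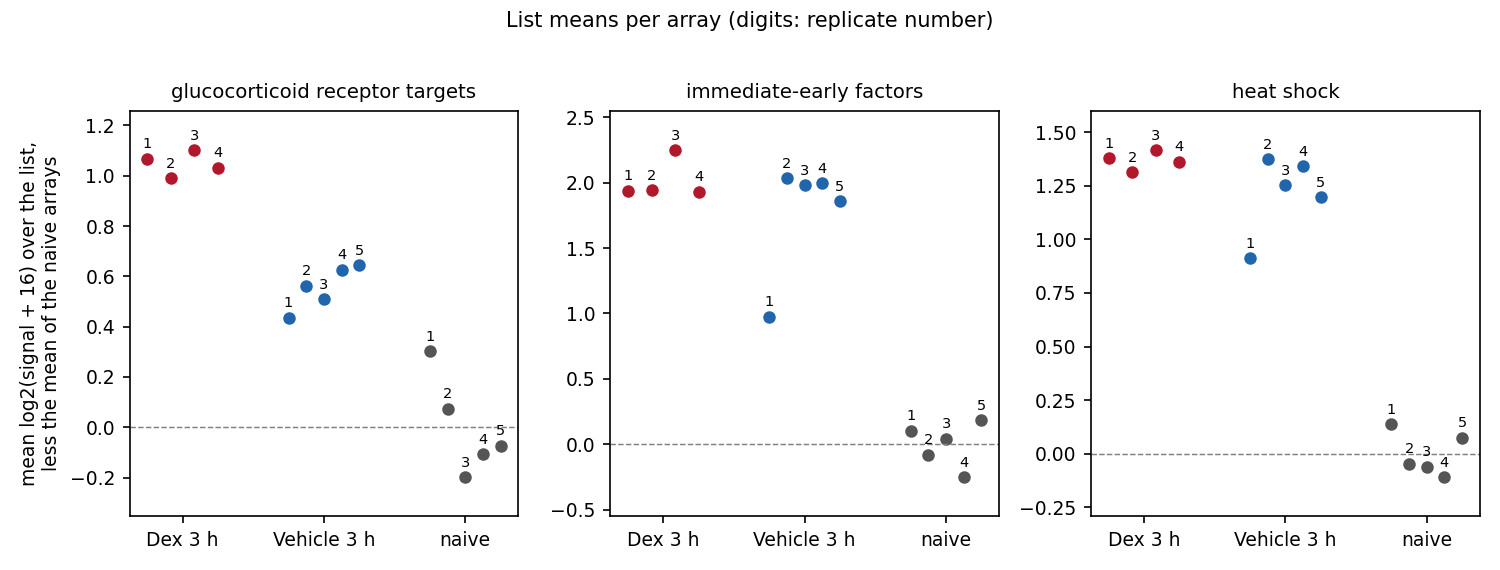
Mean log2(signal + 16) over the genes of 3 lists, less the mean of the naïve arrays, per array in Dex 3 h (n = 4), Vehicle 3 h (n = 5) and naïve kidneys (n = 5); digits are replicate numbers. For the 42 glucocorticoid receptor targets the Dex 3 h arrays lay at 0.99 to 1.1, the Vehicle 3 h arrays at 0.44 to 0.64 and the naïve arrays at -0.20 to 0.30, with naïve replicate 1 the highest and Vehicle 3 h replicate 1 apart for the other lists.

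Markers of blood cells moved with the comparison. Of 8 red blood cell genes, 4 rose (Hbb, Hbb-b1, Alas2 and Hemgn, median 1.16), against 4.44% of all tested probe sets, and none of the 8 was called without naïve replicates 1 and 2. The count was 1 when naïve replicate 2 or Dex 3 h replicate 1 or 2 alone was left out, and 2 without naïve replicate 1 or Dex 3 h replicate 3 or 4. Their summed signal was 6821 to 8556 in Dex 3 h kidneys, against 1773 to 5032 in naïve kidneys. Hbb, for the beta chain of hemoglobin, was at 3823, 3427, 2837 and 2838 in Dex 3 h kidneys and 903, 206, 1688, 1466 and 1503 in naïve kidneys (log2 difference 1.76, SE 0.57, adjusted p = 0.024). Without naïve replicates 1 and 2 its log2 fold change was 1.04 (adjusted p = 0.25), and leaving out naïve replicate 2 alone or Dex 3 h replicate 1 or 2 also ended the call (adjusted p = 0.12, 0.059 and 0.056). Hbb-b1 rose by 1.87 (SE 0.53, adjusted p = 0.0084) and Alas2, for heme synthesis in red cells, by 1.42 (SE 0.50, adjusted p = 0.037). Without naïve replicates 1 and 2 they were at 1.27 and 0.73 (adjusted p = 0.11 and 0.38), and the call of Alas2 was also lost when any 1 of naïve replicates 1 and 2 and the 4 Dex 3 h arrays was left out (adjusted p = 0.052 to 0.14). Of 19 neutrophil genes (17 tested), 3 rose and none fell (median 0.34), against rises of 4.44% of all tested probe sets. The summed signal of the 19 was 1379 to 2067 in Dex 3 h kidneys and 554 to 671 in naïve kidneys. Without Lcn2, the sum was 830 to 1083 in Dex 3 h kidneys and 384 to 617 in naïve kidneys. The 3 were Lcn2, which tubules also make, Il1r2 and the chemokine receptor gene Cxcr2 (log2 difference 1.74, SE 0.38, adjusted p = 8.1e-04). The defining neutrophil markers S100a8 and Mpo were not called, and S100a8 was at 4.25 to 11.8 in Dex 3 h kidneys and 5.33 to 14 in naïve kidneys. S100a9 was at 44.5 to 51.8 in Dex 3 h kidneys and 8.48 to 21.4 in naïve kidneys (log2 difference 1.12, SE 0.42, adjusted p = 0.053). The part of blood content in the changes of other genes was not tested.

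To describe how Dex and saline kidneys differed after the same surgery, Dex 3 h kidneys were set against Vehicle 3 h kidneys. Of 14607 probe sets, 21 (0.144%) were higher and 4 (0.0274%) lower in Dex 3 h kidneys, 0.171% in all, and 24 of the 25 carried a single symbol. With no demand on the fold, 81 (0.555%) were higher and 8 (0.0548%) lower. Genes for 2 peptide hormones, known glucocorticoid targets and genes of metabolism were higher, and a monocyte chemokine receptor and a hyaluronan synthase were lower. Without Vehicle 3 h replicate 1, 29 were higher and 10 lower, and 23 of the 25 kept their call, while a fit of these 2 groups alone called 13 higher and 1 lower. In that fit Depp1, Steap4, Cyp2c22, Tent5b, Sesn1, Chst3, Wdr93, Ccr2, Has1, Sox18 and Marcks lost their call, at adjusted p-values of 0.071 to 0.55. Dex 3 h and Vehicle 3 h kidneys share the naïve kidneys as reference, so their differences from naïve are given side by side only.

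Gal was at 139, 137, 322 and 304 in Dex 3 h kidneys, against 47.6, 6.4, 10.9, 17.5 and 18.4 in Vehicle 3 h kidneys (log2 difference 2.73, SE 0.53, adjusted p = 0.0039). The log2 difference from naïve was 3.25 in Dex 3 h and 0.52 in Vehicle 3 h kidneys. Nppc was at 332, 347, 163 and 306 in Dex 3 h kidneys and 31.4, 56.4, 39.4, 60.6 and 32.1 in Vehicle 3 h kidneys (log2 difference 2.31, SE 0.34, adjusted p = 5.9e-05), and the lowest Dex 3 h array exceeded the highest Vehicle 3 h array for both peptides. Relt, a receptor of the TNF receptor superfamily, was at 118, 135, 211 and 220.1 in Dex 3 h kidneys and 22.4, 28.8, 34.5, 22.6 and 22.4 in Vehicle 3 h kidneys (log2 difference 2.12, SE 0.27, adjusted p = 7.6e-06). Depp1, a target of FOXO factors, was at 792, 1166, 936 and 1054 in Dex 3 h kidneys and 901, 101, 138, 147 and 168 in Vehicle 3 h kidneys (log2 difference 2.19, SE 0.37, adjusted p = 5.1e-04), where Vehicle 3 h replicate 1 alone reached the Dex range. Without that array its difference was 2.70 (adjusted p = 1.1e-07), and in the fit of these 2 groups alone its call was lost (adjusted p = 0.21).

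Known glucocorticoid targets were among the 25. Fkbp5 was at 1212, 1133, 1413 and 1311 in Dex 3 h kidneys and 534, 404, 479, 409 and 516 in Vehicle 3 h kidneys (log2 difference 1.41, SE 0.35, adjusted p = 0.042). Tsc22d3 was at 1043, 1239, 1075 and 1294 in Dex 3 h kidneys and 635, 527, 336, 459 and 473 in Vehicle 3 h kidneys (log2 difference 1.25, SE 0.28, adjusted p = 0.017). No Vehicle 3 h array reached the Dex range in either gene. The adjusted p of Fkbp5 nonetheless passed 0.05 whenever any of the 9 arrays was left out (0.053 to 0.16), and that of Tsc22d3 did so without Vehicle 3 h replicate 3 or Dex 3 h replicate 2 or 4 (up to 0.098). Per1 and Zbtb16 differed by 0.81 (SE 0.29, adjusted p = 0.38) and 1.72 (SE 0.56, adjusted p = 0.26) and were not called. Zbtb16 was at 730 to 820 in Dex 3 h kidneys and 157 to 283 in Vehicle 3 h kidneys, with no overlap. Of the 42 glucocorticoid receptor targets, 3 were called higher than in Vehicle 3 h kidneys (Fkbp5, Tsc22d3 and the sestrin gene Sesn1), and the median difference was 0.48, against 0.01 over all genes. Among all tested probe sets, 0.144% were called higher.

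Amd1, which makes decarboxylated S-adenosylmethionine for polyamine synthesis, was at 1554, 1456, 1901 and 2085 in Dex 3 h kidneys and 986, 539.7, 702, 721 and 702 in Vehicle 3 h kidneys (log2 difference 1.25, SE 0.13, adjusted p = 1.2e-07). Tp53inp1, a p53 target, was at 1005 to 1299.9 in Dex 3 h kidneys and 442 to 602 in Vehicle 3 h kidneys (log2 difference 1.24, SE 0.18, adjusted p = 5.4e-05). Sesn1 was at 618 to 732 in Dex 3 h kidneys, 205 to 544 in Vehicle 3 h kidneys and 402 to 453 in naïve kidneys (log2 difference 1.19, SE 0.22, adjusted p = 0.0019 against Vehicle 3 h). Ccn2 differed by 1.36 (SE 0.33, adjusted p = 0.03) and lost its call when any of 8 arrays was left out, all but Vehicle 3 h replicate 1 (adjusted p up to 0.16). Steap4, a metalloreductase gene, was at 811 to 1526 in Dex 3 h kidneys and 240 to 629 in Vehicle 3 h kidneys (log2 difference 1.30, SE 0.26, adjusted p = 0.0054). The cytochrome gene Cyp2c22 was at 47.1, 100.3, 141 and 126 in Dex 3 h kidneys and 53.4, 27.9, 21.3, 16.7 and 20.8 in Vehicle 3 h kidneys (log2 difference 1.42, SE 0.23, adjusted p = 4.6e-04), and the groups overlapped. The transcription factor gene Gata6 was at 84.7 to 123 in Dex 3 h kidneys and 25.8 to 43.8 in Vehicle 3 h kidneys (log2 difference 1.19, SE 0.18, adjusted p = 8.2e-05). Tent5b, Wdr93, Otulinl, Chst3, for a sulfotransferase of chondroitin, and Ppcs, of coenzyme A synthesis, differed by 1.33, 1.13, 1.02, 1.17 and 1.09 (adjusted p = 1.5e-04, 7.8e-04, 0.02, 0.0019 and 1.9e-05). The call of Steap4 was lost without Dex 3 h replicate 2 or 4, that of Chst3 without Dex 3 h replicate 4, that of Wdr93 without Dex 3 h replicate 3, that of Ppcs without Vehicle 3 h replicate 2 and that of Otulinl without any of 5 arrays. Tent5b was called through both of its probe sets. For the nucleoside carrier gene Slc28a2, 1 probe set was called and the brighter one, with a difference of 0.97 (SE 0.29, adjusted p = 0.19), was not.

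Ccr2, the receptor that brings monocytes out of the blood, was at 20.8, 27.4, 39.4 and 47.6 in Dex 3 h kidneys, against 63.9, 213, 173, 97.2 and 231 in Vehicle 3 h kidneys and 61.6, 65.3, 61.5, 69.6 and 65.9 in naïve kidneys (log2 difference -1.69, SE 0.37, adjusted p = 0.011 against Vehicle 3 h). Every Dex 3 h array was below every array of the other groups. Has1, for hyaluronan synthesis, was at 19, 40.1, 25.3 and 25.6 in Dex 3 h kidneys and 42.3, 86.7, 113, 62.5 and 119 in Vehicle 3 h kidneys (log2 difference -1.16, SE 0.23, adjusted p = 0.0054). Sox18 was at 26.4 to 53.6 in Dex 3 h kidneys and 42.4 to 213 in Vehicle 3 h kidneys, with overlap through Vehicle 3 h replicate 1 (log2 difference -1.05, SE 0.24, adjusted p = 0.021). Marcks, a substrate of protein kinase C, was at 146 to 188 in Dex 3 h kidneys and 235 to 459.7 in Vehicle 3 h kidneys (log2 difference -1.02, SE 0.23, adjusted p = 0.018). The call of Ccr2 was lost without Vehicle 3 h replicate 5 or Dex 3 h replicate 1 or 2 (adjusted p = 0.055 to 0.066), that of Sox18 without Vehicle 3 h replicate 3 or 5 or Dex 3 h replicate 1, 2 or 3, and that of Marcks without any of 6 arrays. That of Has1 was lost with an offset of 1 (log2 difference -1.54, adjusted p = 0.12).

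**Figure D4:**
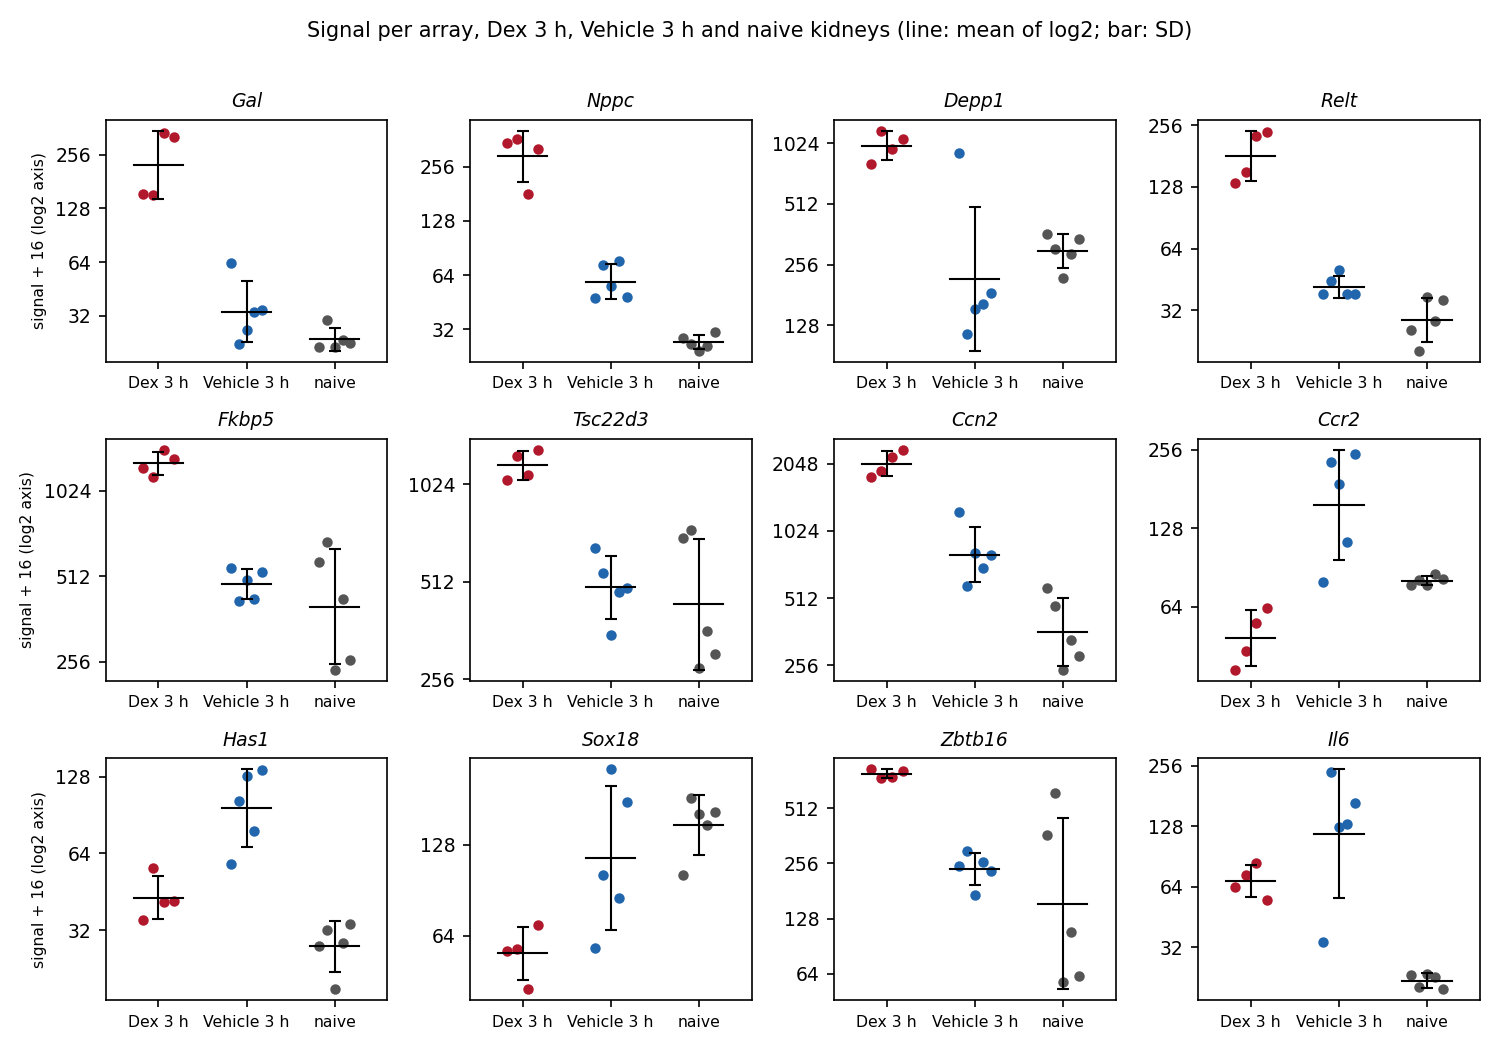
Signal + 16 per array (log2 axis) for 12 genes in Dex 3 h (n = 4), Vehicle 3 h (n = 5) and naïve kidneys (n = 5), with the mean of the log2 values as a line and the SD as a bar. Gal, Nppc, Relt, Fkbp5 and Tsc22d3 were higher in each Dex 3 h array than in any Vehicle 3 h array, Ccr2 was lower in each, and Zbtb16 and Il6 were not called between these 2 groups.

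Of the 20 genes with the largest rises against naïve kidneys, Nppc and Gal were called between Dex 3 h and Vehicle 3 h kidneys and the other 18 were not. Among all tested probe sets, 0.171% were called. The 20 were picked by their values in the same Dex 3 h arrays, which favours genes high in these arrays, so the count is a description only. Atf3 differed by 0.52 (95% interval -0.82 to 1.85, adjusted p = 1), Hmox1 by -0.31 (95% interval -1.13 to 0.50, adjusted p = 1), Havcr1 by 0.69 (95% interval -1.38 to 2.75, adjusted p = 1) and Fgf23 by -0.87 (95% interval -1.88 to 0.13, adjusted p = 0.94). These intervals still allow differences of over 1.5-fold in either direction for Atf3 and Havcr1. Hspb1 was at 3526 to 3611 in Dex 3 h kidneys and 3328 to 3846 in Vehicle 3 h kidneys, and the groups overlapped, with a log2 difference of 0.0053 (95% interval -0.82 to 0.83, adjusted p = 1). Il6 was at 48.1, 57.5, 67.7 and 39.1 in Dex 3 h kidneys, against 17.8, 222, 110.4, 116 and 151 in Vehicle 3 h kidneys (log2 difference -0.78, SE 0.35, adjusted p = 0.7), and was called lower without Vehicle 3 h replicate 1 (log2 difference -1.23, adjusted p = 0.028). Selp was at 82.2, 73.2, 71.1 and 80.8 in Dex 3 h kidneys and 48, 276, 381, 257 and 228 in Vehicle 3 h kidneys (log2 difference -1.24, SE 0.44, adjusted p = 0.38). Vehicle 3 h replicate 1 lay below the Dex 3 h arrays and the other 4 above them. Nfkbia differed by 0.79 (SE 0.20, adjusted p = 0.046) and Apold1 by 1.34 (SE 0.34, adjusted p = 0.053), and neither was called. Over the 33 cytokine genes the median difference was -0.28 with no call, and over the 26 heat shock genes it was 0.13 with no call. With 0.171% of all tested probe sets called, lists of this size would mostly hold no call, so its absence does not show that they were unchanged.

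By the study's text, the 3 h experiments were done before the 24 h experiments. Animals at 3 h were still under anesthesia, while those at 24 h had woken and received buprenorphine. Time after reperfusion, order of the experiments and these conditions cannot be told apart in what follows. At 24 h of reperfusion in animals given the same drug, 336 probe sets (2.3%) were higher and 502 (3.44%) lower than at 3 h, 5.74% in all. With no demand on the fold, 1926 (13.2%) were higher and 1332 (9.12%) lower. Dex 24 h replicate 4 stood apart, with a mean correlation of 0.047 with its group, against 0.18 to 0.40 in the others. Its nearest array was naïve replicate 2. It had the lowest 24 h signals of Atf3, Fosl1, Myc, Hspb1, Havcr1 and Mcm6 and the highest of Casr. Without it, 479 probe sets were higher and 593 lower. Of the 28 immediate-early factors (26 tested), 17 were lower and none higher (median -1.64). Among all 17245 genes, of which 8924 were tested, 275 were higher and 376 lower, and the median was 0.085. The signals of Atf3 were 80.7, 63.2, 105, 51.1 and 126 in naïve kidneys, 2741, 2687, 4210.5 and 2999.6 in Dex kidneys at 3 h and 544, 239.9, 179, 42.7 and 443 in Dex kidneys at 24 h, and the change between the times was -3.72 (SE 0.66, adjusted p = 7.5e-05). Fos was at 63.5 to 185, 793 to 1482 and 33.4 to 145 in naïve kidneys and Dex kidneys at 3 and 24 h (log2 difference -3.15, SE 0.53, adjusted p = 3.8e-05), and Egr1 at 403 to 1077, 2617 to 3974 and 156 to 774 (log2 difference -2.81, SE 0.51, adjusted p = 9e-05). Fosl1 was spread widely at 24 h, at 457, 184, 120.1, 12.1 and 299.6. Myc was at 639.5, 344, 278, 114 and 554 at 24 h. Neither was called, with log2 differences of -1.34 (SE 0.70, adjusted p = 0.18) and -1.19 (SE 0.46, adjusted p = 0.057).

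Among all tested probe sets, 3.44% were lower and 2.3% higher at 24 h than at 3 h. Heat shock genes were lower at 24 h in 11 of 26 cases (21 tested) and higher in none (median -0.92). Hspb1 was at 752, 185, 228, 201 and 339 in naïve kidneys, 3599, 3526, 3545 and 3611 at 3 h and 1106, 988, 684, 321 and 1247 at 24 h (log2 difference -2.16, SE 0.41, adjusted p = 1.6e-04), and Dnajb1 at 281 to 329.9, 2553 to 3015 and 242 to 473 (log2 difference -3.02, SE 0.35, adjusted p = 8.3e-08). Glucocorticoid targets were lower in 16 of 42 cases and higher in none (median -0.90). Tsc22d3 was at 223, 573, 399, 576 and 597 at 24 h (log2 difference -1.34, SE 0.28, adjusted p = 5.2e-04), Per1 at 525 to 759.7 (log2 difference -1.20, SE 0.29, adjusted p = 0.0022) and Fkbp5 at 329.9 to 1171 (log2 difference -0.83, SE 0.35, adjusted p = 0.085). The Fgf23 signals of 16.7, 8.65, 11.2, 12.8 and 15.5 at 24 h lay within or near the naïve range (log2 difference -2.88, SE 0.50, adjusted p = 4.8e-05). Hk2, Edn1 and Nppc were lower at 24 h, with log2 differences of -1.85, -2.35 and -1.66 (adjusted p = 3.4e-04, 7.7e-08 and 3.9e-04).

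Of 30 tubular injury markers, 1 was higher and 3 lower at 24 h than at 3 h (median -0.013), where 2.3% of all tested probe sets were higher and 3.44% lower. Havcr1 was at 72, 31.5, 27.1, 33 and 25.5 in naïve kidneys, 422, 626, 728 and 660.2 at 3 h and 4196, 3778, 4384, 756 and 3768 at 24 h, and it was not called (log2 difference 2.24, SE 1.02, adjusted p = 0.11). Lcn2 was at 44.8 to 170.4, 549 to 1211 and 941 to 3733 in the same order (log2 difference 1.43, SE 0.73, adjusted p = 0.17), and Sox9, of the 3 lower genes, at 449.8 to 909, 1168 to 1397 and 258 to 451 (log2 difference -1.86, SE 0.32, adjusted p = 4.4e-05). Gal was at 22.2, 316, 366, 84.5 and 597 at 24 h (log2 difference -0.19, SE 0.53, adjusted p = 0.85). Casr was at 267, 315, 359, 724 and 176 at 24 h and did not pass the test (log2 difference 0.80, SE 0.46, adjusted p = 0.24), while Tril was higher than at 3 h (log2 difference 1.44, SE 0.26, adjusted p = 7.7e-05) and so was Sox18 (log2 difference 1.43, SE 0.24, adjusted p = 3.9e-05).

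Of 26 genes of cell cycle and DNA replication, 20 were higher at 24 h than at 3 h and none lower, with a median of 1.43. Among all tested probe sets, 2.3% were higher. Mcm6, a subunit of the replicative helicase, was at 72.7, 55.3, 99.5, 90.7 and 101 in naïve kidneys, 80.3, 53.9, 60.4 and 58.9 at 3 h and 646, 492, 467, 154 and 518 at 24 h (log2 difference 2.45, SE 0.45, adjusted p = 1.2e-04), and Top2a, which untangles chromosomes, at 71.2 to 222, 65.5 to 116 and 165 to 494 (log2 difference 1.64, SE 0.42, adjusted p = 0.0038). The NRF2 target Nqo1 was at 139.6 to 1109 at 24 h against 96.2 to 133 at 3 h (log2 difference 1.69, SE 0.43, adjusted p = 0.004). Of 28 proximal tubule solute carriers, 6 were lower and 22 were not called (median -0.59), where 3.44% of all tested probe sets were lower. Among the 6 was Slc34a1 (log2 difference -1.10, SE 0.29, adjusted p = 0.0051), whose call was lost without Dex 24 h replicate 1 (log2 difference -0.97). Umod was lower too, at 803 to 4261 at 24 h against 4162 to 4997 at 3 h (log2 difference -1.36, SE 0.43, adjusted p = 0.018), but not without Dex 24 h replicate 5 (adjusted p = 0.078).

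**Figure D5:**
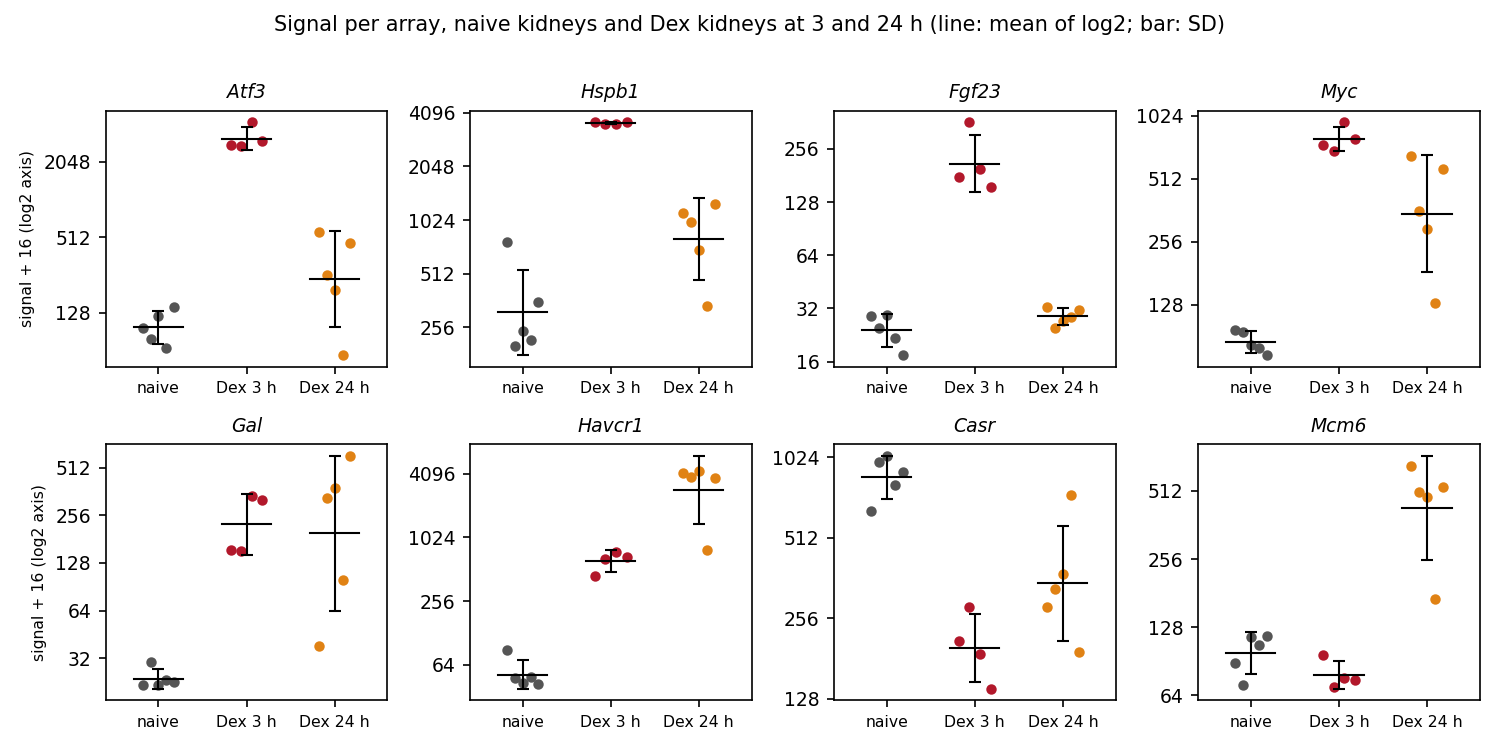
Signal + 16 per array (log2 axis) for 8 genes in naïve kidneys (n = 5) and Dex kidneys at 3 h (n = 4) and 24 h (n = 5), with the mean of the log2 values as a line and the SD as a bar. Atf3, Hspb1 and Fgf23 were high at 3 h and lower at 24 h, Gal and Havcr1 were not called between the times, and Mcm6 was higher at 24 h.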

How the data were processed

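Each kidney was hybridised to 1 array. The deposited values are linear intensities, 1 per probe set, called signal here; the authors made them with iterative PLIER and a normalization between arrays (Affymetrix Expression Console 1.1). The number of arrays limits the precision. From these values, log2(signal + 16) was computed for all 46 arrays of the 10 groups and fitted with limma 3.58.1 in R 4.3.3 (lmFit, eBayes), which left 36 residual degrees of freedom. The 50% of 29214 probe sets with the lower SD were not tested. Of all probe sets, 18644 had 1 gene symbol in the platform annotation, 962 several and 9608 none, and only those with 1 were named. A gene with several probe sets is given by the brightest. Animals carry no label of litter or day, so p-values measure spread between animals only. Each SE and p-value pools a gene's spread within all 10 groups and is not the spread of the 2 groups compared alone. For S100a9 against naïve kidneys the SE was 0.42, and 0.13 with only the 2 groups fitted. For Sox18 between Dex 3 h and Vehicle 3 h kidneys it was 0.24, and 0.36 with only the 2 groups fitted.

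Named genes are the 20 largest rises and 15 largest falls, members of gene lists, all genes called between Dex 3 h and Vehicle 3 h and genes that the study names at 3 h. The groups, members and lists were chosen with earlier results of these data known, so list counts are descriptions. Promoters were taken from RefSeq (build GRCr8). The fit was tested on simulated data. Alternatives changed the offset, scaling, filters, samples and fold threshold, and leaving out both naïve replicates 1 and 2 was chosen after seeing the data. The study's text gives another number of arrays than the 46 used here.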

Additional observations from a re-analysis of the deposited data

Results flagged for a closer look

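In groups of 4 or 5 arrays, 1 array stood apart from the others by Dixon's criterion in 23 of 361 tests over 169 genes, a criterion that chance meets in about 1 of 20 groups. Values in parentheses are that array's signal. Dex 3 h replicate 3 stood apart as the highest for Rnd1 (638), Cxcl10 (782) and Wdr93 (101) and as the lowest for Nppc (163). Dex 3 h replicate 1 stood apart as the lowest for Thbd (284). Vehicle 3 h replicate 1 stood apart as the highest for Depp1 (901). Vehicle 3 h replicate 4 stood apart as the lowest for Steap4 (240.0). Naïve replicate 1 stood apart as the highest for Havcr1 (72), Dusp10 (88.7), Asns (386), Npy (166) and Cxcr2 (24.4) and as the lowest for Egf (2297), Gclc (5451) and Bambi (284). Naïve replicate 2 stood apart as the highest for Gal (14.2), Sox9 (909) and Lrp2 (3101) and as the lowest for Cd180 (45.1), Lcn2 (44.8), Cd44 (139), Hbb-b1 (170.1) and Marcks (235). Naïve replicates 1 and 2 account for 8 of the 23 cases each and Dex 3 h replicate 3 for 4.

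Injured kidneys of animals given Dex and of animals given saline differed for 25 probe sets, tested as the contrast of Dex 3 h and Vehicle 3 h in limma. Without uninjured Dex kidneys, a changed injury response and a Dex effect apart from injury cannot be told apart. The log2 differences of those higher in Dex 3 h kidneys were Gal 2.73, Nppc 2.31, Depp1 2.19, Relt 2.12, Cyp2c22 1.42, Fkbp5 1.41, Ccn2 1.36, Tent5b 1.35, Tent5b (its other probe set) 1.33, Steap4 1.30, Slc28a2 1.26, Tsc22d3 1.25, Amd1 1.25, Tp53inp1 1.24, Sesn1 1.19, Gata6 1.19, Chst3 1.17, Wdr93 1.13, Ppcs 1.09, a probe set with no single symbol 1.04 and Otulinl 1.02. Those of the lower ones were Marcks -1.02, Sox18 -1.05, Has1 -1.16 and Ccr2 -1.69.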

How the results depend on the processing

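Of 128 named genes called in Dex 3 h against naïve kidneys, 112 were called under all alternatives, 16 lost the call under some, and none changed direction; 8 others were called under some. Between Dex 3 h and Vehicle 3 h kidneys, 5 of 22 called genes were called under all alternatives, and between Dex 24 h and Dex 3 h kidneys 64 of 82, with no change of direction. The number of called probe sets in Dex 3 h against naïve kidneys, 744, became 1134 (873 up and 261 down, so 77% up against 87.1%) with an offset of 1, which raises the folds of low signals, and 2887 with no fold threshold. Leaving out 1 array gave 682 to 775. The 25 probe sets called between Dex 3 h and Vehicle 3 h kidneys became 14 in a fit of these groups alone, 58 (37 higher and 21 lower) under array weights and 89 with no fold threshold, and leaving out 1 array gave 18 to 39, the highest without Vehicle 3 h replicate 1. Between Dex 24 h and Dex 3 h kidneys, 838 became 3258 with no fold threshold. Leaving out 1 array gave 712 to 1072 there, the highest without Dex 24 h replicate 4. With the replicate number as a block, the counts were 791, 25 and 830. Animals with the same number in Dex 3 h and naïve kidneys did not deviate together throughout (rank correlations 0.29, 0.35, 0.094 and -0.13), so the numbers give no pairing, and not every animal correlated best with its own number. Quantile normalization and median centring gave 735 and 703 calls against naïve kidneys. S100a9 was called under 5 alternatives (log2 differences 1.11 to 1.82). Genes whose signals lie under the offset of 16 in naïve kidneys have damped folds, and 4 or 5 arrays per group limit what can pass the test.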

Other observations

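The adipocyte list of 11 genes, which stands for fat around the kidney, had a summed signal of 6679 in Dex 3 h replicate 1 and 1066 to 1338 in the other 3 Dex 3 h kidneys. In Vehicle 3 h kidneys it was 6726 in replicate 5 and 1007 to 2202 in the other 4. In naïve kidneys it was 3943 in replicate 1 and 864 to 952 in the other 4. None of its genes was called between Dex 3 h and naïve kidneys. The adrenal list of 9 genes summed to 393 to 582 in Dex 3 h kidneys, to 1015 in Vehicle 3 h replicate 1 and 334 to 447 in the other 4 Vehicle 3 h kidneys, and to 288 to 507 in naïve kidneys, with no gene called between Dex 3 h and naïve kidneys.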
